A study of Mus musculus with 4 samples.

Results

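The oxidative phosphorylation genes of mouse liver were described in 4 mRNA-seq libraries. A gene was taken by its symbol: every mt- gene and the Nduf, Sdh, Uqcr, Cyc1, Cox4 to Cox8 and Atp5 families, which gave 103 of the 13903 genes listed. Of these, 13 are encoded by the mitochondrial genome and 90 by nuclear chromosomes. Among the nuclear genes, 80 encode subunits of complexes I to V, and 10 match the symbols without encoding a subunit (Ndufaf1 to Ndufaf8, Cox7a2l and Ndufa4l2). All mice were OGT-floxed on the C57BL/6J background and were given the CDE diet, which is deficient in choline and supplemented with ethionine. The virus was AAV8-TBG-CRE for the mice labelled OGT-KO and AAV8-TBG-eGFP for the controls. Liver was collected at 2 points, labelled No Recovery and 7 Day recovery. TBG is a hepatocyte promoter, so Cre was directed to hepatocytes and the other liver cells keep Ogt. A condition has a single library, for which the RNA of 3 mice was pooled, so no difference below has a replicate check. Age and sex are not given in the labels.

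The respiratory chain passes electrons from NADH (complex I) or succinate (complex II) through complexes III and IV to oxygen, and ATP synthase (complex V) uses the resulting proton gradient. Complexes I, III, IV and V combine a few subunits made inside the mitochondrion with many imported ones, while all subunits of complex II are nuclear. Hepatocytes are rich in mitochondria, and the subunit genes are expressed in every cell type of the liver.

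The libraries held 19972699 to 22866431 reads on listed genes. Ogt, the targeted gene, which encodes O-GlcNAc transferase, was at 64.7 CPM (counts per 1000000 reads) in the control and 55.3 CPM in the no-recovery library labelled OGT-KO, but at 55.7 CPM and 77.7 CPM after 7 days, so at 7 days it went against the label. Scaled by the median ratio over genes, Ogt was lower in both libraries labelled OGT-KO, by 0.93 and 0.20 on the log2 scale. With upper-quartile scaling the log2 differences were -0.69 and -0.005. With equal totals of the genes other than mt- genes they were -0.20 and 0.47. The direction at 7 days therefore depends on the scaling. Over the 8963 genes whose mean reached 10 CPM, the median difference of log2(CPM + 1) between the library labelled OGT-KO and its control was 0.51 with no recovery and 0.48 after 7 days. It was -0.05 and -0.03 between the times in the control libraries and in those labelled OGT-KO. The 100 highest genes held 42.8% and 44.99% of reads in the control libraries and 34.1% and 34.3% in those labelled OGT-KO. Group medians below are therefore also given relative to that median. The 12 hepatocyte markers summed to 95761 and 106926 CPM in the control libraries and 63107 and 75626 CPM in those labelled OGT-KO, with 10 of 12 lower at both times. All 6 bile duct markers (53.7 and 69.9 against 1170 and 1483 CPM in sum), all 7 stellate cell and fibroblast markers, all 6 macrophage markers and all 5 endothelial markers were higher at both times. Fewer hepatocytes and less RNA per hepatocyte cannot be told apart in these libraries, and the part of cell makeup in the results below was not tested.

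Promoters are shown for the nuclear subunits at both ends of the range described below, because these are the genes that carry the largest differences. Each runs from 250 bases before to 50 bases after the RefSeq start on GRCm38.p6. Capitals mark a match on either strand to 1 of 4 words: CGCATGCG (NRF1), CCGGAAGT (ETS), AAGATGGC (YY1) or AAGGTCA (ERRA). No word contains another.

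Ndufa3 (chr7:3617123-3617422, plus strand): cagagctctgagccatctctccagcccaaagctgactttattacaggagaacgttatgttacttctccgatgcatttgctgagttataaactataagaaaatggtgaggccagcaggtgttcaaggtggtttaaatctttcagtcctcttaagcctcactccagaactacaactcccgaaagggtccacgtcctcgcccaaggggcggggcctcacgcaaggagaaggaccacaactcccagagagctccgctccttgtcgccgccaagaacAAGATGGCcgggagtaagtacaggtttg

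Uqcr10 (chr11:4704295-4704594, minus strand): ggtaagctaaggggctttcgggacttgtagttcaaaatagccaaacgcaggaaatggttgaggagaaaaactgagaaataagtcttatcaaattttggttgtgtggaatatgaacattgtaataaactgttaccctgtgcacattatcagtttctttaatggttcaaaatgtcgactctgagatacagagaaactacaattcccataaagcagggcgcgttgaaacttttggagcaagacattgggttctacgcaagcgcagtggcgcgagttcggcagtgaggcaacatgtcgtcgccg

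Atp5e (chr2:174464052-174464351, minus strand): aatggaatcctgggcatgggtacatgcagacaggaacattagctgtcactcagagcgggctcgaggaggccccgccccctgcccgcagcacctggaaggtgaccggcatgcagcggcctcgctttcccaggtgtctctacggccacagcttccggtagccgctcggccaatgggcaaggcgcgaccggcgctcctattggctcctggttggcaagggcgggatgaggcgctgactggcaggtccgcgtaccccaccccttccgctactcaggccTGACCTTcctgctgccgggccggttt

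Ndufb4 (chr16:37654319-37654618, minus strand): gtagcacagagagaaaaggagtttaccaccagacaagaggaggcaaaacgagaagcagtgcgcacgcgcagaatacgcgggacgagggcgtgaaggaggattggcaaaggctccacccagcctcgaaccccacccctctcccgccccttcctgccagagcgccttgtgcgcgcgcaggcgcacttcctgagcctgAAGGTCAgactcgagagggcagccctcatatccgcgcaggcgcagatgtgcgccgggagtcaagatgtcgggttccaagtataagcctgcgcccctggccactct

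Ndufa3, with the YY1 word, and Uqcr10, with none of the 4, were among the lowest in the libraries labelled OGT-KO. Atp5e, among the lowest, and Ndufb4, the highest, both held the ERRA word. Over the 8 subunit genes with this word and a mean of at least 10 CPM, the median difference was -0.19 with no recovery. After 7 days it was 0.03. For the 57 such genes without the word the medians were -0.23 and -0.11. RefSeq promoters were matched for 67 of the 80 subunit genes. The NRF1 word was in 9 of them (13.4%, against 4.71% of 7178 promoters of tested genes), the YY1 word in 10 (14.9% against 5.87%), the ERRA word in 8 (11.9% against 4.12%) and the ETS word in 5 (7.46% against 10.04%). A match is a description of these letters and not of a bound factor.

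**Figure D1:**
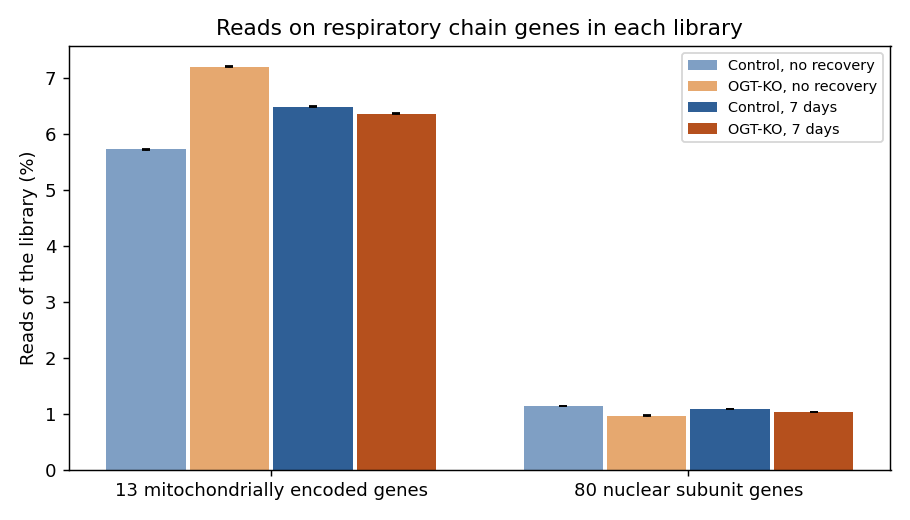
Share of all reads of each library (%) on the 13 mitochondrially encoded and the 80 nuclear subunit genes, with 95% exact binomial intervals that cover counting error only. The mitochondrially encoded share is highest in the no-recovery library labelled OGT-KO (7.20%) and the nuclear share is lowest there (0.967%).

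Relative to most genes, the nuclear subunit genes stood low in both libraries labelled OGT-KO, and the median of every complex lay below that of all genes. They summed to 11366 CPM (control) and 9668 CPM (labelled OGT-KO) with no recovery, and 7 days later to 10800 and 10314 CPM. Of the 80 genes, 78 passed the filter of a mean of 10 CPM. Their median difference of log2(CPM + 1) was -0.23 with no recovery and -0.10 after 7 days, which is -0.73 and -0.58 relative to the median of all genes. At each time 77 of the 78 lay below the median of all genes, the exception being Ndufb4.

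With no recovery, 6 of 78 were at least 2-fold lower and 0 were 2-fold higher, while 5.69% of all genes were 2-fold lower and 24.4% were 2-fold higher. After 7 days, 1 was 2-fold lower and 0 were higher, against 4.27% and 22.9% of all genes. Both libraries labelled OGT-KO lay below both control libraries for 44 of 78 genes (56.4%, against 16.6% of all genes) and above both for 14 (17.9%, against 70.0%). These counts depend on the scaling: scaled by the median ratio, 32 and 15 of the 78 were 2-fold lower, against 15.4% and 11.8% of all genes.

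**Figure D2:**
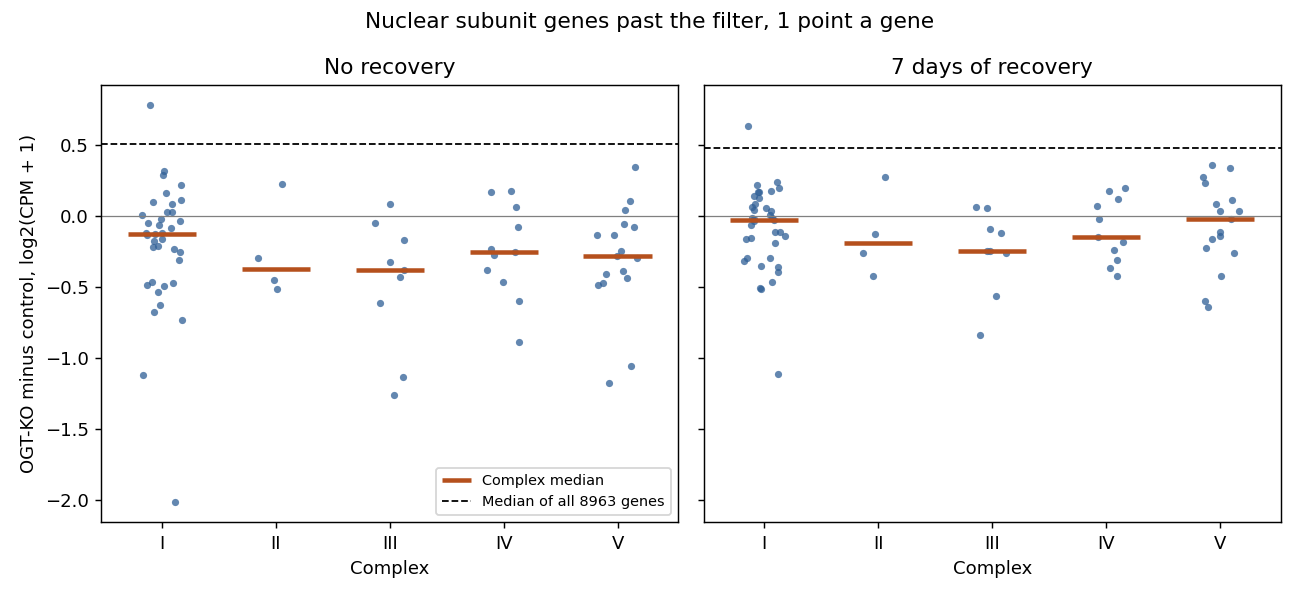
Difference of log2(CPM + 1) between the library labelled OGT-KO and its control for each nuclear subunit gene past the filter, by complex, with no recovery (left) and after 7 days (right). Each point is a gene, the thick line is the complex median and the dashed line the median of all 8963 genes, which lies above every complex median.

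Ndufa3, an accessory subunit of complex I, had the largest difference among the members past the filter. It was at 54.3 CPM in the control and 12.7 CPM (290 reads) in the no-recovery library labelled OGT-KO, and at 47.1 and 21.3 CPM after 7 days. Its log2 differences were -2.01 (4.04-fold lower) and -1.11, and it was the only member 2-fold lower at both times. The 95% exact counting interval of its log2 ratio ran from -2.29 to -1.91 at the former time and from -1.31 to -0.98 at the latter. Both libraries labelled OGT-KO were below both controls.

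The 5 other genes past 2-fold with no recovery belong to complexes I, III and V. Uqcr10, a small subunit of complex III, was at 84.7 and 34.8 CPM with no recovery and 79.7 and 53.5 CPM after 7 days (log2 differences -1.26 and -0.57). Uqcrq, also of complex III, was at 274 and 124 CPM, then 234 and 130 CPM (-1.13 and -0.84). These were the lowest of complex III at both times.

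Atp5e and Atp5d encode the epsilon and delta subunits in the central stalk of the ATP synthase F1 part. Atp5e was at 88.3 and 38.5 CPM with no recovery and 75.9 and 49.8 CPM after 7 days (-1.18 and -0.60). Atp5d was at 293 and 141 CPM, then 265 and 170 CPM (-1.05 and -0.64). The gamma subunit of the same stalk, Atp5c1, was at 196 and 144 CPM, then 204 and 185 CPM. Ndufv3, of the NADH-oxidizing module of complex I, was at 91.6 and 41.8 CPM, then 80.5 and 58.1 CPM (-1.12 and -0.46). All 6 genes past 2-fold with no recovery stood closer to their control after 7 days, but they were picked for their size at the former time, so a smaller second value has no weight.

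**Figure D3:**
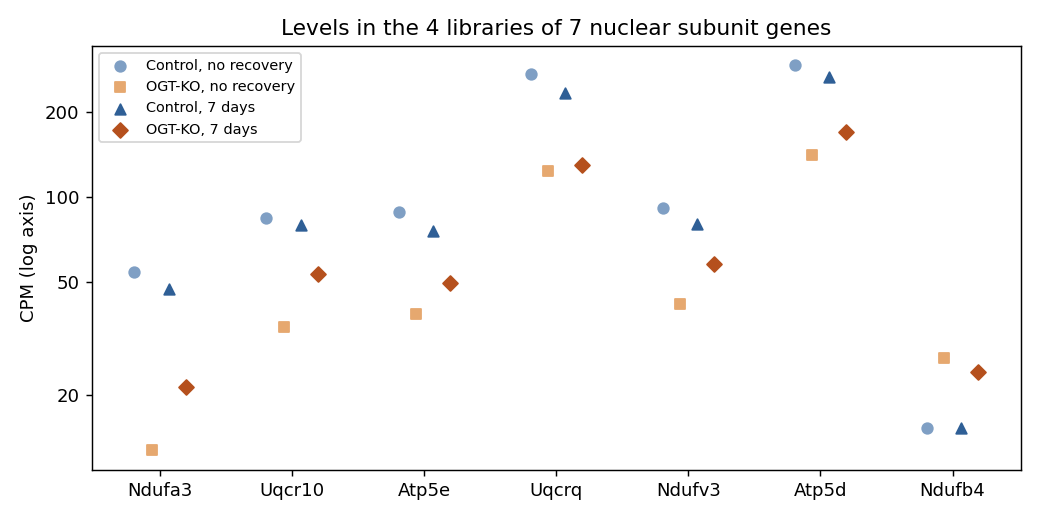
CPM (log axis) in each of the 4 libraries for the 6 nuclear subunit genes at least 2-fold lower with no recovery and for Ndufb4, the highest. For the 6 genes both libraries labelled OGT-KO lie below both controls, with Ndufa3 at 54.3 and 12.7 CPM with no recovery, and for Ndufb4 they lie above.

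Complex I, the NADH dehydrogenase, had medians of -0.12 and -0.03 over 37 genes, or -0.63 and -0.51 relative to all genes. Its 7 core subunits, which carry the flavin and the iron-sulfur clusters, had medians of 0.03 and 0.06 (relative -0.48 and -0.42), and its 30 accessory subunits -0.15 and -0.05 (relative -0.65 and -0.53). Ndufb4, an accessory subunit, was at 15.2 and 26.9 CPM with no recovery and 15.2 and 24.1 CPM after 7 days (0.78 and 0.63). It shares 40.2% of its transcript with Ndufb4c, with at most 0.5% of those bases different, so its reads may not all be its own. Ndufs1, the largest core subunit, was at 92.4 and 115 CPM, then 96.2 and 114 CPM (0.32 and 0.24). Ndufa9 stood at 0.29 and 0.22. Ndufb9, the next lowest after Ndufa3 and Ndufv3, stood at -0.73 and -0.51. It shares 28.7% of its transcript with the gene entry Gm49356, within the same 0.5% limit, so its reads may not all be its own.

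Complex II, the succinate dehydrogenase that is also an enzyme of the TCA cycle, had medians of -0.37 and -0.19 over 4 genes, or -0.88 and -0.67 relative to all genes. Sdha, the flavoprotein, was at 495 and 346 CPM with no recovery and 440 and 368 CPM after 7 days (-0.51 and -0.26). Sdhb, the iron-sulfur subunit, stood at -0.45 and -0.42, and the membrane anchor Sdhc at -0.30 and -0.13. The other membrane anchor, Sdhd, was higher in both libraries labelled OGT-KO, at 130 and 152 CPM, then 132 and 160 CPM (0.23 and 0.27).

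Complex III, cytochrome c reductase, had the lowest medians, -0.38 and -0.24 over 9 genes, or -0.89 and -0.72 relative to all genes. In both libraries labelled OGT-KO, 7 of 9 lay below both controls, against 16.6% of all genes. After Uqcrq and Uqcr10, Uqcr11 stood at -0.61 and -0.26. The core protein Uqcrc1 was at 235 and 250 CPM, then 243 and 254 CPM (0.09 and 0.06), Uqcrh at -0.05 and 0.06 and Uqcrb at -0.17 and -0.12.

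Complex IV, cytochrome c oxidase, had medians of -0.25 and -0.15 over 11 genes, or -0.76 and -0.62 relative to all genes. Cox7b was at 122 and 65.3 CPM with no recovery and 120 and 96.6 CPM after 7 days (-0.89 and -0.31). Cox7c stood at -0.60 and -0.37 and Cox6c at -0.38 and -0.42. Cox4i1, Cox6a1 and Cox6b1, the forms found in liver, were between 0.06 and 0.20 at both times. The testis form Cox6b2 was under the filter, at 1 and 93 reads with no recovery and 5 and 72 reads after 7 days, and so was the muscle form Cox7a1, at 0.66 and 2.06 CPM, then 0.30 and 1.91 CPM. Cox7a2, the liver form, was at 119 and 113 CPM, then 99.7 and 108 CPM (-0.08 and 0.12). The skeletal muscle markers fixed for this tissue were not among the listed genes.

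Complex V had medians of -0.28 and -0.02 over 17 genes, or -0.79 and -0.50 relative to all genes. Atp5b and Atp5a1, the highest nuclear subunit genes in CPM, were at 1052 and 1015 CPM, then 976 and 1181 CPM, and at 873 and 797 CPM, then 853 and 875 CPM. Atp5o, the oligomycin sensitivity-conferring protein of the peripheral stalk, was higher in both libraries labelled OGT-KO, at 61.3 and 78.0 CPM, then 60.4 and 76.8 CPM (0.34 and 0.34). It shares 48.8% of its transcript with other gene entries, with at most 0.5% of those bases different, so its reads may not all be its own. Atp5h stood at -0.47 and -0.42, and Atp5mpl at 0.04 and 0.24. The 3 genes for the c subunit differed: Atp5g1 stood at -0.38 and 0.11, Atp5g2 at 0.11 and 0.36 and Atp5g3 at -0.30 and -0.02. Atp5g2 shares 88.2% of its transcript with the pseudogene Gm10175 and is uncertain. The range of the 5 complex medians was 0.26 with no recovery and 0.22 after 7 days, while the SD over the 78 genes was 0.42 and 0.29.

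The 13 mitochondrially encoded genes took 5.73% of reads in the control and 7.20% in the no-recovery library labelled OGT-KO, and 6.49% and 6.36% after 7 days. Their sum was higher by 0.33 on the log2 scale with no recovery and lower by 0.029 after 7 days, or -0.18 and -0.51 relative to the median of all genes. The sign with no recovery depends on scaling: it was -0.39 with median-ratio scaling and -0.15 with the upper quartile. These genes are cut from shared long transcripts, so they are not independent of each other. The ratio of their sum to that of the nuclear subunits does not depend on scaling. It was 5.04 (control) and 7.45 (labelled OGT-KO) with no recovery, and 6.01 and 6.17 after 7 days, a log2 difference of 0.56 and 0.037. Without mt-Nd1 the log2 difference was 0.38 and -0.12.

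**Figure D4:**
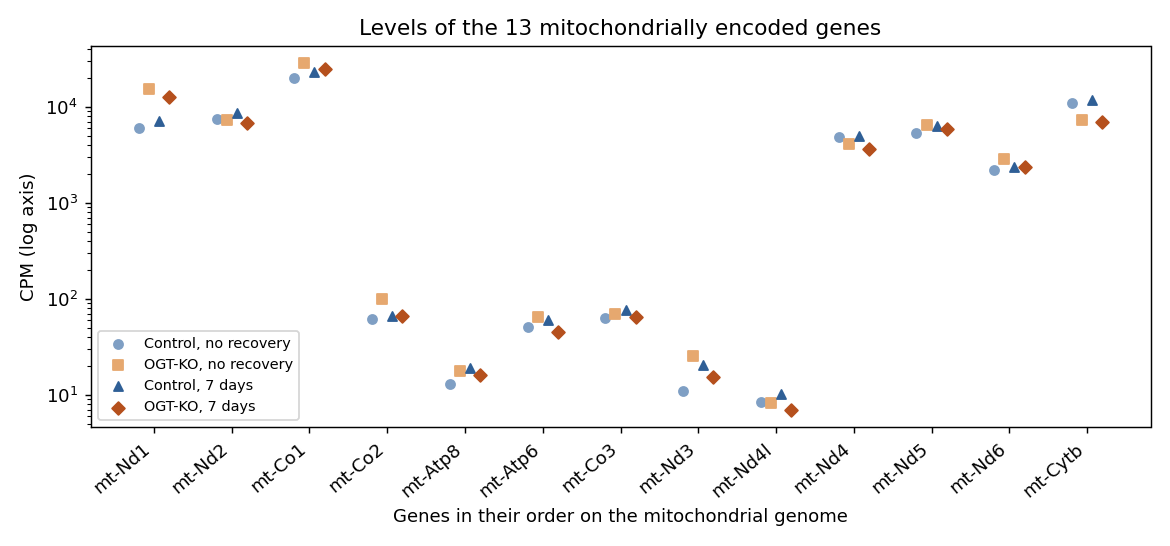
CPM (log axis) of the 13 mitochondrially encoded genes in their order on the mitochondrial genome in the 4 libraries. Every library shows 7 genes at 2186 CPM or more and 6 far below them, down to 6.96 CPM for mt-Nd4l.

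The mitochondrially encoded genes fell into a high and a low set. mt-Co1 and mt-Nd1, the catalytic subunit of complex IV and a membrane subunit of complex I, had the highest mean levels per length, 15640 and 10809 CPM per kb. mt-Co2, mt-Co3, mt-Atp6, mt-Atp8, mt-Nd3 and mt-Nd4l were between 28.5 and 108 CPM per kb. Of these 6, all but mt-Atp8 share at least 98.99% of their bases with nuclear pseudogenes, with at most 0.5% of those bases different, a limit set after the levels were seen. mt-Atp8 shares 21.1% and is low too, while mt-Nd4 shares 63.6% and mt-Co1 31.3% and both are high. Copies were sought among annotated transcripts only, so copies without an annotation would be missed for any of these genes. In mt-Nd4 the shared bases are 876 of 1378, and in mt-Co1 483 of 1545. Whether shared bases bear on the low levels was not tested. How reads with several matches were counted is not given in the sources used here, so the values of these 6 genes are uncertain. The first 60 bases of 2 of them, beside those of their copies on chromosome 1 (GENCODE M21, GRCm38), show how alike they are, with capitals at bases that differ.

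mt-Co2: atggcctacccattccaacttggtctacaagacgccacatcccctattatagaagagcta
Gm28661: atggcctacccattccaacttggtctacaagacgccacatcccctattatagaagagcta
mt-Nd3: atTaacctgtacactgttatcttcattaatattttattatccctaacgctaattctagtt
Gm28438: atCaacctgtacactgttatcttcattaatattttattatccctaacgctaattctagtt

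The mt-Co2 window matches its copy at every base and the mt-Nd3 window differs at 1. For mt-Cytb, of the high set, the copy with the longest alignment was Gm11410 on chromosome 4, and the window from base 2 to base 61 differs at 3.

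mt-Cytb: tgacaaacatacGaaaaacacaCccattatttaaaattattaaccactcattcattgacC
Gm11410: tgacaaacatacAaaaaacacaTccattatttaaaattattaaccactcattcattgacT

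Within the high set the genes did not move together. mt-Nd1 was at 6060 CPM in the control and 15356 CPM in the no-recovery library labelled OGT-KO, and at 7199 and 12760 CPM after 7 days (log2 differences 1.34 and 0.83). mt-Cytb, the complex III subunit and the last of the 13 in gene order, was at 11045 and 7226 CPM, then 11857 and 7010.5 CPM (-0.61 and -0.76). For both genes the libraries labelled OGT-KO and the controls did not overlap, which is common in these data. Of all genes, 70.0% had both libraries labelled OGT-KO above both controls and 16.6% had both below. The ratio of mt-Nd1 to mt-Cytb was 0.549 and 2.13 with no recovery and 0.607 and 1.82 after 7 days, and this ratio is the same under every scaling.

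The other genes of the high set lay between those. mt-Co1 was at 20062 and 28439 CPM, then 23256 and 24902 CPM (0.50 and 0.10). mt-Nd2 stood at -0.06 and -0.34, mt-Nd4 at -0.24 and -0.46 and mt-Nd5 at 0.28 and -0.11. mt-Nd6, the only one on the other strand, stood at 0.40 and -0.01. In the low set, mt-Nd3 was at 11.0 and 25.3 CPM with no recovery and 20.4 and 15.5 CPM after 7 days (1.13 and -0.38). mt-Co2 stood at 0.70 and -0.02, mt-Atp8 at 0.44 and -0.22, mt-Atp6 at 0.33 and -0.39 and mt-Co3 at 0.15 and -0.24. mt-Nd4l, under the filter, stood at -0.03 and -0.49. With no recovery 2 of the 12 past the filter were 2-fold higher (mt-Nd1 and mt-Nd3) and 0 were lower, against 24.4% and 5.69% of all genes. After 7 days 0 passed 2-fold in either direction, against 22.9% and 4.27%.

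**Figure D5:**
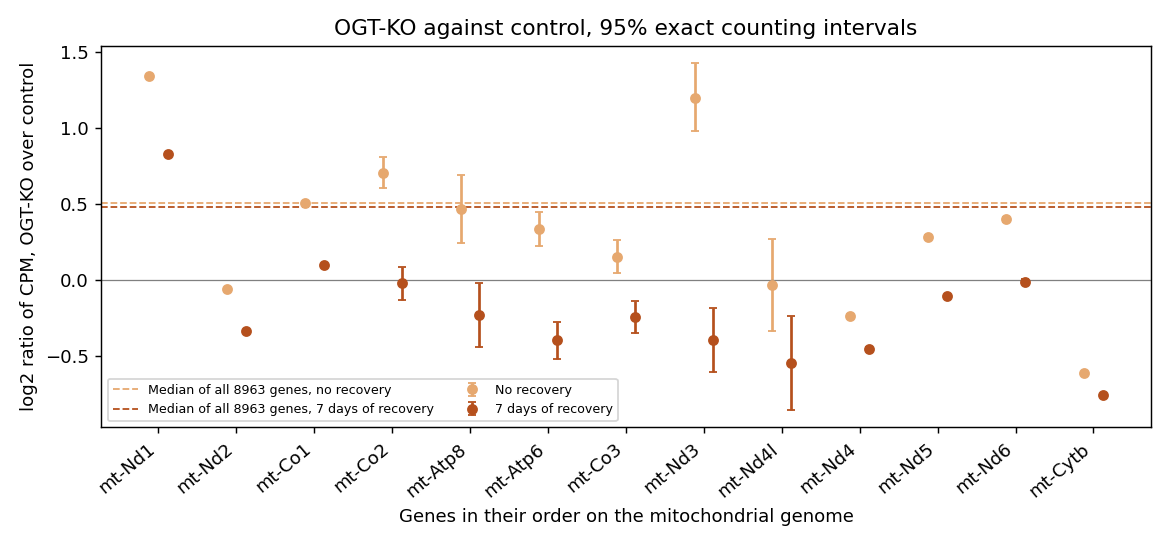
log2 ratio of CPM between the library labelled OGT-KO and its control for the 13 mitochondrially encoded genes in gene order, with 95% exact counting intervals, and dashed lines at the median of all 8963 genes. mt-Nd1 lies above both lines at both times, and mt-Cytb is the lowest at both times.

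From no recovery to 7 days, 0 of the 97 members past the filter differed 2-fold, either in the control libraries or in those labelled OGT-KO. Of all genes 1.20% and 1.47% did, so a count of 0 is near the share of all genes. The nuclear subunit median was -0.07 in the control libraries and 0.07 in those labelled OGT-KO, with 58 of 78 lower in the former (60.5% of all genes were) and 54 of 78 higher in the latter (45.5% of all genes were). In the libraries labelled OGT-KO, Ndufa3 (0.71), Uqcr10 (0.61), Cox7b (0.56), Ndufv3 (0.47) and Atp5g1 (0.47) were the highest. These genes stood below their control in the no-recovery library labelled OGT-KO. The same library enters this comparison, so these values carry no separate weight. All 12 mitochondrially encoded genes past the filter were higher at 7 days in the control libraries and lower in those labelled OGT-KO, and their sum differed by 0.18 and -0.18. Of all 8963 genes, 3538 were higher in the former and 4887 lower in the latter. The 12 genes come from shared transcripts and are not independent of each other. The difference between genotypes had opposite signs at the 2 times, with both 95% counting intervals clear of 0, for 10 of the 97 members, against 2.70% of all genes. This criterion was set after the values were seen, and it is met more easily by genes with many reads. The median level past the filter was 99.7 CPM for nuclear subunits and 3419 CPM for mitochondrially encoded genes, against 35.5 CPM over all genes. The 10 include several of the mitochondrially encoded genes.

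The genes matched by symbol that encode no subunit were 7 past the filter, with medians of 0.19 and 0.23, or -0.32 and -0.25 relative to all genes. Ndufaf1, an assembly factor of complex I, was at 25.5 and 14.4 CPM, then 26.0 and 18.7 CPM (-0.78 and -0.46). Cox7a2l stood at 0.33 and 0.31, Ndufaf7 at 0.35 and 0.48, Ndufaf2 at 0.22 and 0.36, Ndufaf6 at -0.06 and 0.23, Ndufaf8 at -0.22 and -0.01 and Ndufaf4 at 0.19 and -0.34. Ndufaf3, Ndufaf5 and Ndufa4l2 were under the filter, at most 11.0, 6.91 and 3.37 CPM in any library.

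Genes that build or serve the chain were described from lists, given as medians with no recovery and after 7 days. The 33 other assembly factors past the filter stood at 0.28 and 0.17, with Acad9 (1.22 and 1.43) and Cox19 highest and Surf1 (-0.58 and -0.81) and Timmdc1 (-0.97 and -0.43) lowest. The 10 genes of mitochondrial DNA transcription and maintenance stood at 0.38 and 0.22. Lonp1, the matrix protease, was highest, at 191 and 661 CPM, then 173 and 410 CPM (1.79 and 1.24), followed by Mgme1 (0.46 and 0.46), and Mterf3 (-0.30 and -0.51) and Ssbp1 (0.13 and -0.03) were lowest. The 14 genes of mitochondrial RNA processing and stability stood at 0.28 and 0.19, from Fastkd2 (1.40 and 0.81) and Slirp (0.94 and 0.72) to Fastkd1 (-0.27 and -0.23) and Hsd17b10 (-1.11 and -0.87).

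Of the 8 biogenesis regulators past the filter, with medians of 0.60 and 0.35, Ppard (1.27 and 1.28) and Gabpb1 (1.16 and 0.90) were highest and Ppara, the fatty acid oxidation receptor, was lowest, at 59.8 and 23.5 CPM, then 58.2 and 30.2 CPM (-1.31 and -0.92), with Esrra (-0.03 and 0.34) next. The 18 genes of electron carriers and coenzyme Q synthesis stood at 0.31 and 0.45. They held the widest range: Coq8b stood at 2.07 and 1.73 and Coq4 at 1.40 and 1.36, while Coq8a was at 336 and 107 CPM, then 309 and 191 CPM (-1.64 and -0.69). Etfdh, which passes electrons from fatty acid oxidation to coenzyme Q, was at 210 and 39.3 CPM, then 208 and 75.7 CPM (-2.39 and -1.45). The 16 TCA cycle genes stood at -0.02 and 0.21, with Mdh2 (1.04 and 1.24) highest and Suclg1 (-0.77 and -0.28) and Pdha1 (-0.73 and -0.52) lowest. The 17 genes of the outer membrane and import stood at 0.40 and 0.39, from Tomm5 (1.86 and 1.42) and Tomm20 (1.37 and 1.07) to Tomm40 (0.17 and 0.15) and Tomm70a (-0.15 and -0.18). The medians of these 7 lists were all above that of the nuclear subunits at both times. Relative to all genes, however, they ran from -0.52 (TCA cycle) to 0.09 (biogenesis regulators) with no recovery and from -0.31 (assembly factors) to -0.03 (electron carriers) after 7 days. Apart from the biogenesis regulators with no recovery, each lay on the same side as the nuclear subunits.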

How the data were processed

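mRNA libraries (Tecan universal plus mRNA-seq) were made from liver RNA extracted with TRIzol, 1 library for each of 4 conditions. The authors deposited 1 table of CPM, reads per gene scaled to a library total of 1000000, and the submitters' processing notes name STAR, DESeq2 and GRCm39. How reads with several matches were counted is not given in the sources used here. Whole reads were recovered from the deposited CPM (100% of values within 0.001 of a whole number). Differences are of log2(CPM + 1), over the 8963 genes whose mean reached 10 CPM. The pseudocount of 1 shrinks differences of low genes, and a gene was called at a 2-fold difference. With 1 library per group there is no p-value across genes. Intervals are exact binomial (95%) and cover counting error only. A floor of 3 reads equals 0.131 to 0.150 CPM.

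Transcript lengths and near copies came from GENCODE M21 (GRCm38, 13893 of 13903 gene identifiers matched) with BLAST+ 2.17.0, and promoters from RefSeq (GRCm38.p6). Statistics used scipy 1.17.1 and pandas 2.3.3 in Python 3.11.15, tested on simulated data. The members and lists were chosen with earlier results of these data known. Named genes were all mitochondrially encoded members, nuclear members 2-fold different at both times, the 3 highest and 3 lowest of each complex by the mean of both differences, tissue isoforms, matched genes that encode no subunit, the 2 highest and 2 lowest of each list, and Ogt. A gene that this rule names is not reported here. Others were named after their values were seen: Atp5c1, Atp5a1, Atp5b, Ndufa11, Cox5b, Ndufs5, Ndufc2 and Ndufv1. Alternatives were 3 other scalings, 2 pseudocounts, 2 filters, a 1.5-fold threshold, an exact binomial test and other mitochondrial sets.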

Additional observations from a re-analysis of the deposited data

Results flagged for a closer look

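The difference between the library labelled OGT-KO and its control had opposite signs at the 2 times for 10 of 97 members past the filter, counting a gene where both 95% counting intervals lay clear of 0, a criterion set after the values were seen. Of all 8963 genes, 2.70% met it, but it is met more easily by genes with many reads, and the members stand high. With 1 library per condition the difference between the times was not tested. Among mitochondrially encoded genes the members that met it were mt-Nd3 (1.13 with no recovery and -0.38 after 7 days), mt-Nd5 (0.28 and -0.11), mt-Co3 (0.15 and -0.24), mt-Atp6 (0.33 and -0.39) and mt-Atp8 (0.44 and -0.22). Mitochondrially encoded genes are not independent of each other, and the values of all these but mt-Nd5 are uncertain. Among nuclear genes the members that met it were Ndufa11 (-0.13 and 0.17), Atp5a1 (-0.13 and 0.04), Atp5b (-0.05 and 0.27), Atp5g1 (-0.38 and 0.11) and Ndufaf4 (0.19 and -0.34). The summed mitochondrially encoded level did the same (0.33 and -0.029), and between the times it was 0.18 in the control libraries and -0.18 in those labelled OGT-KO. The signs between genotypes are on the scale of equal library totals.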

How the results depend on the processing

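Most values depended on scaling. With median-ratio scaling the summed mitochondrially encoded level reversed with no recovery (-0.39), was -0.71 after 7 days, and was 0.22 and -0.11 between the times (control libraries, those labelled OGT-KO). With upper-quartile scaling these were -0.15 (reversed), -0.51, 0.23 and -0.13. With equal totals of the other genes they were 0.35 with no recovery, and 0.19 and -0.19 between the times. Without mt-Nd1, a choice made after the data were seen, they were 0.15, -0.18, 0.17 and -0.16. Nuclear medians were -0.93 and -0.78 with median-ratio scaling and -0.70 and -0.58 with the upper quartile. Relative to the median of all genes they were -0.74 to -0.73 and -0.60 to -0.58 under the scalings, and -0.87 to -0.53 and -0.69 to -0.41 under the pseudocounts and filters. The ranges under the scalings are narrow by construction, because a scaling shifts the log2 differences of all genes almost equally. This also applies to the span of the complex medians under the scalings. Nuclear subunits at least 2-fold lower numbered 32 and 15 with median-ratio scaling and 13 and 5 with the upper quartile, and 12 and 4 at a 1.5-fold difference. After 7 days they numbered 0 with a pseudocount of 10 or a mean of at least 50 CPM. Those 2-fold higher numbered 1 and 2 with no filter, and 1 and 1 at 1.5-fold. Adding an exact binomial test on reads with Benjamini-Hochberg adjustment removed no 2-fold call, either among the members or among all genes. At this depth it could hardly do so, and it compares these libraries and not the conditions, so it adds no support. The log2 difference of the mitochondrial to nuclear ratio was 0.59 by medians, 0.46 without mt-Co1 and 0.38 without mt-Nd1 with no recovery. After 7 days it reversed under all 3, to -0.13, -0.039 and -0.12, and the cause was not tested. The complex medians spanned between 0.25 and 0.26 at the no-recovery time and between 0.21 and 0.22 at 7 days, but each median moved with median-ratio and upper-quartile scaling, and at 7 days complex IV stood at -0.02 with no filter and complex V at -0.11 with a mean of at least 50 CPM. No paired analysis was possible because each condition has 1 library and the labels give no replicate numbers.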

Other observations

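After the promoters of the lowest nuclear subunits had been read, a word of the type bound by ZNF143 was noticed in Ndufa3, Uqcr10 and Atp5d, and 6 spellings of it were then searched on both strands: CTACAANTC, CTACANNTC, CTACAATTC, ACTACAA and a pair of 12-letter forms. Between 2 and 9 of the 65 subunit genes past the filter with a promoter held a given spelling. With no recovery the median difference of the holders was between -1.16 and -0.52 over the 6 spellings, against -0.22 to -0.21 for the other subunits. These include the 3 genes that led to the word, so they carry no weight for it. The other holders of any spelling were Cox7b (-0.89), Cox7c (-0.60), Cox8a (-0.46), Atp5c1 (-0.44), Cox5b (-0.23), Ndufs5 (-0.12), Ndufc2 (-0.08), Ndufv1 (0.16) and Atp5o (0.34), and their medians by spelling ran from -0.29 to 0.34, the upper end being Atp5o alone. Among 7109 tested genes outside the family, the holders' medians were 0.21 to 0.39, against 0.51 to 0.52 for the rest, and 4.92% to 5.61% of holders were at least 2-fold lower, against 5.54% to 5.56% of the rest.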
